A study of Mus musculus with 20 samples.

Results

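Slpi, Srgn, Spp1, Hdc, Ifitm1, Enpp2 and Tgm2 are 7 genes, of 55471 in the count table, with more reads in chronically inflamed mouse skin and in chronically inflamed mouse pancreas than in the control tissue. They were chosen by their measured values in exactly these comparisons, so the levels and fold changes below describe the choice and carry no test. Slpi, Srgn, Spp1, Hdc and Ifitm1 had few counts in the 10 control libraries together, between 10 (Ifitm1 and Slpi) and 44 (Srgn). Enpp2 with 196 and Tgm2 with 93 had more. Each gene was followed by its symbol and its Ensembl identifier across the 20 libraries. The 2 inflamed tissues were also tested against each other. The choice did not use that difference, but it used the levels on both sides of it.

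The libraries came from wild-type C57BL/6 mice and fall into 4 groups of 5. Back skin was painted with the hapten DNFB (dinitrofluorobenzene), which sets off an allergic dermatitis, or with its acetone vehicle 3 times a week for 22 days, in male and female mice aged 4 to 6 weeks, and RNA was taken from the epidermis. The pancreas came from mice injected intraperitoneally with caerulein at 50 µg per kg, a secretagogue that overdrives the digestive enzyme-making acinar cells, or with phosphate-buffered saline (PBS) alone, in 6 hourly injections on 3 days a week for 3 weeks. The age of these mice is not given in the sources used here. The libraries carry label numbers from 1 to 20 that do not repeat between groups. Nothing in the labels says how many animals gave each library, so the spread given here is that between libraries.

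As background, these genes do different things. Slpi encodes a secreted inhibitor of neutrophil serine proteases that epithelia and myeloid cells release. Srgn encodes serglycin, the proteoglycan that packs proteases and other cargo into the granules of leukocytes. Spp1 encodes osteopontin, a secreted ligand of integrins and CD44 made by macrophages and, in the pancreas, by duct cells. Hdc encodes histidine decarboxylase, the enzyme that makes histamine, known in mast cells and basophils and inducible in other myeloid cells. Ifitm1 belongs to a family of interferon-induced membrane proteins that restrict virus entry. Enpp2 encodes autotaxin, the secreted enzyme that makes lysophosphatidic acid, and Tgm2 encodes tissue transglutaminase, which cross-links matrix proteins.

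The libraries were shallow. Total counts ranged from 791491 to 2232039, and 12 predicted genes made of satellite-like repeats took between 37.9% and 94.3% of them, which left 69592 to 1073987 counts for all other genes. PBS libraries had 69592 to 201611 such counts and caerulein libraries 87788 to 591505, so raw counts in pancreas do not compare at equal depth. Values are given as normalized CPM, that is, counts scaled to a common library size (CPM) after TMM scaling of the library totals. On that scale 1 count was worth between 0.250 and 1.67, so most control values of Slpi, Srgn, Ifitm1 and Hdc rest on 0 to 2 reads. The counting intervals below take reads as independent and leave out the spread between libraries. Smart-Seq2 has no molecular identifiers, so copies of 1 molecule are not set apart and the intervals can be too narrow. Acetone libraries 11 and 12 stood apart, with 1073987 and 938689 counts on all genes but these, where acetone libraries 1 to 3 had 92640 to 152978. They also had the highest summed level of macrophage and monocyte markers in skin (912 and 1102, against 18.7 to 65.2 in the other 3 acetone libraries), and the skin fold changes of the 7 genes and of their partners are therefore also given without them. Keratinocyte markers, led by Krt14, were present in all 10 skin libraries at summed levels from 110 to 3279, against 14.4 at most in pancreas. Acinar markers, led by Ctrb1, had summed levels of 2071 to 98237 in pancreas and 29.4 at most in skin.

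The stretches before the transcription starts are shown because these genes were high together in both tissues. RefSeq's table of promoters on GRCm38.p6, from 250 bases before to 50 after a start, held 7 windows for 5 of the genes, with 2 starts each for Spp1 and Srgn. Enpp2 and Tgm2 had no entry. Each window was searched on both strands for GAAANNGAA (an interferon-stimulated response element), GGGNNTTCC (NF-kB), TGANTCA (AP-1), GAGGAA (PU.1) and TTGCNNAA (C/EBP), and 3 windows with a match are printed as the 250 bases upstream of the start, 5′ to 3′ on the strand of the gene, with matches in capitals.
Slpi, chr2:164356508-164356757, minus strand: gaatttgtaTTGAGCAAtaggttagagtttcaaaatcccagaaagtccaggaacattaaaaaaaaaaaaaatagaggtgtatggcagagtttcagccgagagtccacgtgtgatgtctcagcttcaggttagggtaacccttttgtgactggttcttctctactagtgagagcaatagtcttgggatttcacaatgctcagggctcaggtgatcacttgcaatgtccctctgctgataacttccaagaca
Spp1, first start, chr5:104434861-104435110, plus strand: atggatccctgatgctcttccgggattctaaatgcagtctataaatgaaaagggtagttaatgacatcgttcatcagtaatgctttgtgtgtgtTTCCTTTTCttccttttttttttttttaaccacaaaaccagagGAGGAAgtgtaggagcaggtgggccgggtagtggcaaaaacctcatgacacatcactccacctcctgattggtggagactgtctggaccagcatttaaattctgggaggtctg
Srgn, start inside the gene, chr10:62507758-62508007, minus strand: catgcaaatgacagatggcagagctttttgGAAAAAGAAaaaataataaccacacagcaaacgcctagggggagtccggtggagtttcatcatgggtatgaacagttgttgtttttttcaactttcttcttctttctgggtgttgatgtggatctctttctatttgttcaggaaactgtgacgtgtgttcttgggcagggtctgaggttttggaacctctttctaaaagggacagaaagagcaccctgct
The capitals mark a C/EBP match in Slpi that begins 241 bases before the start, an interferon-type match at 156 bases and a PU.1 match at 113 bases in Spp1, and an interferon-type match at 220 bases in Srgn. The matches in Spp1 do not overlap each other. The second start of Spp1 held 1 further C/EBP match, and the windows of Hdc, Ifitm1 and the outer start of Srgn held none of the 5 motifs. Over all 32851 windows in the table, the interferon-type motif was present in 8.56%, PU.1 in 28.3%, C/EBP in 10.8%, AP-1 in 7.81% and NF-kB in 5.82%. None of the 7 windows held AP-1 or NF-kB letters. These matches describe letters and were not tested as sites.

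Slpi (ENSMUSG00000017002, chr2:164354070-164389095, GRCm38) had its highest levels in caerulein-treated pancreas, where 1 library carried most of its reads. In skin, the acetone libraries 1, 2, 3, 11 and 12 held 1.17, 0, 0, 0.250 and 0.572 normalized CPM of Slpi, which is 4 counts in all. The DNFB libraries 4, 5, 6, 13 and 14 held 1.27, 9.78, 2.03, 38.1 and 28.8. Every DNFB library lay above every acetone library, although DNFB library 4, with 3 counts, was only just above acetone library 1. The log2 fold change was 5.13 ± 0.95 (SE, n = 5 and 5), and 5.31 without acetone libraries 11 and 12.

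In pancreas, 4 of 5 PBS libraries held no count of Slpi and PBS library 8 held 6 counts, or 10.04 normalized CPM. Caerulein libraries 9, 10, 18, 19 and 20 held 14.4, 377, 31.1, 72.5 and 22.8. The groups did not overlap, and caerulein library 10 alone gave 77.9% of the 1016 Slpi counts in the group. The log2 fold change was 5.76 ± 0.98. Without PBS library 8 no Slpi count is left in PBS, and a floor of 3 counts over that group gave a ratio of 117. That ratio leaves out the only PBS library with Slpi counts and keeps caerulein library 10, so it is not a lower bound. With PBS library 8 kept, the pooled caerulein rate was 71.0 times the PBS rate. Without caerulein library 10, and with PBS library 8 kept, the log2 fold change was 4.17.

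Srgn (ENSMUSG00000020077, chr10:62493833-62527451) had close means in the 2 inflamed tissues, at 39.8 and 42.0 normalized CPM, but the latter was 15.2 without caerulein library 10. The acetone libraries 1, 2, 3, 11 and 12 held 0, 1.67, 0, 6.76 and 4.29 normalized CPM of Srgn. The DNFB libraries 4, 5, 6, 13 and 14 held 4.64, 18.7, 23.4, 67.2 and 85.3. Only DNFB library 4 fell within the acetone range, below acetone library 11. For Srgn in skin this gave a log2 fold change of 3.73 ± 0.89, and 6.60 without acetone libraries 11 and 12, which held 42 of the 43 acetone counts.

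A single Srgn count was found in PBS-treated pancreas, in library 8. Caerulein libraries 9, 10, 18, 19 and 20 held 1.2, 149, 2.30, 41.7 and 15.5 normalized CPM. Libraries 9 and 18 rested on 1 and 2 counts, and library 9 lay below PBS library 8. Over the pooled counts (429 against 1) the caerulein rate was 180 times the PBS rate, with an exact 95% counting interval from 32.1 to 7117. That interval leaves out the spread between libraries, where caerulein library 10 held 313 of the 429 counts.

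Spp1 (ENSMUSG00000029304, chr5:104435118-104441050) had the highest single level in skin of the 7 genes. The acetone libraries 1, 2, 3, 11 and 12 held 2.34, 8.36, 0, 0.501 and 0.286 normalized CPM. The DNFB libraries 4, 5, 6, 13 and 14 held 8.02, 15.5, 17.96, 106 and 242. DNFB library 4 lay just below acetone library 2, and the other 4 DNFB libraries lay above all acetone libraries. Spp1 differed by 5.66 ± 1.09 on the log2 scale in skin, and by 4.87 without acetone libraries 11 and 12. It was 2.42 among label numbers 1 to 10 and 8.64 among 11 to 20, the widest gap between the number ranges in skin among the 7 genes.

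In pancreas, Spp1 in PBS libraries 7, 8, 15, 16 and 17 was 3.25, 1.67, 0, 1.37 and 1.25 normalized CPM. In caerulein libraries 9, 10, 18, 19 and 20 it was 8.40, 87.3, 62.1, 69.6 and 244. All caerulein libraries lay above all PBS libraries, with a log2 fold change of 5.84 ± 0.99. Caerulein library 20, the highest for Spp1, also had the highest summed level of the other 6 duct cell markers (188, against 28.8 to 46.0 in the other caerulein libraries) and of Krt19, a duct keratin (61.1, against 5.999 to 24.3). Spp1 is itself a duct cell marker, and the share of duct cells in its level was not tested.

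Hdc (ENSMUSG00000027360, chr2:126593667-126619299) had the lowest mean per kilobase of all its annotated exons together in both inflamed tissues. By the median in caerulein-treated pancreas Ifitm1, at 2.10 normalized CPM per kb, lay below Hdc, at 4.02. The acetone libraries 1, 2, 3, 11 and 12 held 0, 1.67, 0, 0 and 0.572 normalized CPM, which is 3 counts in all. The DNFB libraries 4, 5, 6, 13 and 14 held 5.07, 8.15, 3.73, 10.98 and 26.5, each above every acetone library. The pooled DNFB rate was 33.9 times the acetone rate, with an exact 95% counting interval from 11.3 to 167. The log2 fold change of Hdc in skin was 4.84 ± 0.93, and 4.72 without acetone libraries 11 and 12.

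In pancreas Hdc was found in every PBS library, at 3.25, 6.70, 1.502, 2.73 and 1.25 normalized CPM in libraries 7, 8, 15, 16 and 17. Caerulein libraries 9, 10, 18, 19 and 20 held 7.20, 114, 3.45, 25.7 and 93.6. Only caerulein library 18 lay within the PBS range. The log2 fold change was 3.97 ± 0.87. Beside it, 3 proteases of mast cells, Cpa3, Cma1 and Tpsb2, had few counts in skin. Mcpt4 and Tpsab1, mast cell proteases of the same marker list, are not shown apart. The 5 DNFB libraries together held 114 counts of Hdc but 8 of Cpa3, 12 of Cma1 and 4 of Tpsb2, where acetone held 7, 6 and 11. In pancreas the 3 proteases had 0, 1 and 1 counts in PBS and 11, 37 and 26 in caerulein libraries, beside 10 and 535 of Hdc. In skin the summed level of the 10 mast cell markers was 6.69 to 22.02 in acetone and 15.2 to 25.3 in DNFB libraries, with Kit, also a melanocyte gene, giving 103 of the 230 DNFB counts. Of the 10 markers, 6 had a positive log2 fold change in skin without the filter, and edgeR called none. The paper reports more mast cells in DNFB-treated skin, while these libraries are of epidermis. The part of mast cells in Hdc was not tested.

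Ifitm1 (ENSMUSG00000025491, chr7:140967221-140969825) had the fewest counts of the 7 genes in DNFB-treated skin, 105. The acetone libraries 1, 2, 3, 11 and 12 held 1.17, 0, 0.801, 1.25 and 0.572 normalized CPM. The DNFB libraries 4, 5, 6, 13 and 14 held 1.69, 7.33, 2.37, 11.3 and 28.2, each above every acetone library. This is a log2 fold change of 3.46 ± 0.81, and of 3.79 without acetone libraries 11 and 12.

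Ifitm1 was uneven in caerulein-treated pancreas. Libraries 9, 10, 18, 19 and 20 held 0, 48.7, 2.30, 1.14 and 77.3 normalized CPM, and the only PBS count was in library 8. Libraries 10 and 20 held 302 of the 306 caerulein counts, so 3 of 5 caerulein libraries stayed at 2 counts or fewer. The pooled caerulein rate was 128 times the PBS rate, with an exact 95% counting interval from 22.8 to 5081 that does not include this spread between libraries.

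Enpp2 (ENSMUSG00000022425, chr15:54838901-54952892) was uneven within the acetone group. Acetone libraries 1, 2 and 3 held 3.51, 0 and 2.40 normalized CPM, while libraries 11 and 12 held 22.3 and 14.6. The DNFB libraries 4, 5, 6, 13 and 14 held 20.3, 15.5, 26.8, 26.5 and 10.2. Over all libraries the log2 fold change in skin was 1.11 ± 0.77. It was 3.45 among label numbers 1 to 10 and 0.08 among 11 to 20, where the DNFB mean of 18.3 lay beside an acetone mean of 18.4. Without acetone libraries 11 and 12 it was 3.37.

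In pancreas, PBS libraries 7, 8, 15, 16 and 17 held 6.504, 60.3, 3.005, 2.73 and 7.50 normalized CPM of Enpp2. Caerulein libraries 9, 10, 18, 19 and 20 held 32.4, 304, 25.3, 146 and 85.4. Caerulein libraries 10, 19 and 20 lay above PBS library 8 and the other two below it. The log2 fold change was 2.98 ± 0.82, and 4.40 without PBS library 8. A gene on the opposite strand that overlaps the start of Enpp2, Gm26684, held 40 counts in DNFB and 23 in caerulein libraries against 246 and 1164 of Enpp2. Smart-Seq2 does not keep strand, so reads of the overlap cannot be told apart.

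Tgm2 (ENSMUSG00000037820, chr2:158116402-158146436) was uneven in the same control libraries as Enpp2. The acetone libraries 1, 2, 3, 11 and 12 held 0, 0, 3.20, 5.01 and 7.43 normalized CPM, and the DNFB libraries 4, 5, 6, 13 and 14 held 1.69, 8.15, 14.9, 33.3 and 11.9. DNFB library 4 lay within the acetone range and the other 4 above it. In skin Tgm2 differed by 1.94 ± 0.74 on the log2 scale, and 3.53 without acetone libraries 11 and 12.

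In pancreas, Tgm2 was at 6.504, 50.2, 3.005, 6.84 and 2.498 normalized CPM in PBS libraries 7, 8, 15, 16 and 17. It was at 11.998, 161, 13.8, 59.9 and 61.9 in caerulein libraries 9, 10, 18, 19 and 20. PBS library 8 lay above caerulein libraries 9 and 18, and the other 4 PBS libraries lay below all caerulein libraries. The log2 fold change was 2.26 ± 0.79, and 3.57 without PBS library 8. Tgm2 overlaps Rprd1b and Gm20412 on the opposite strand. Rprd1b held 94 counts in DNFB and 57 in caerulein libraries, Gm20412 held 16 and 29, and Tgm2 held 182 and 625.

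**Figure D1:**
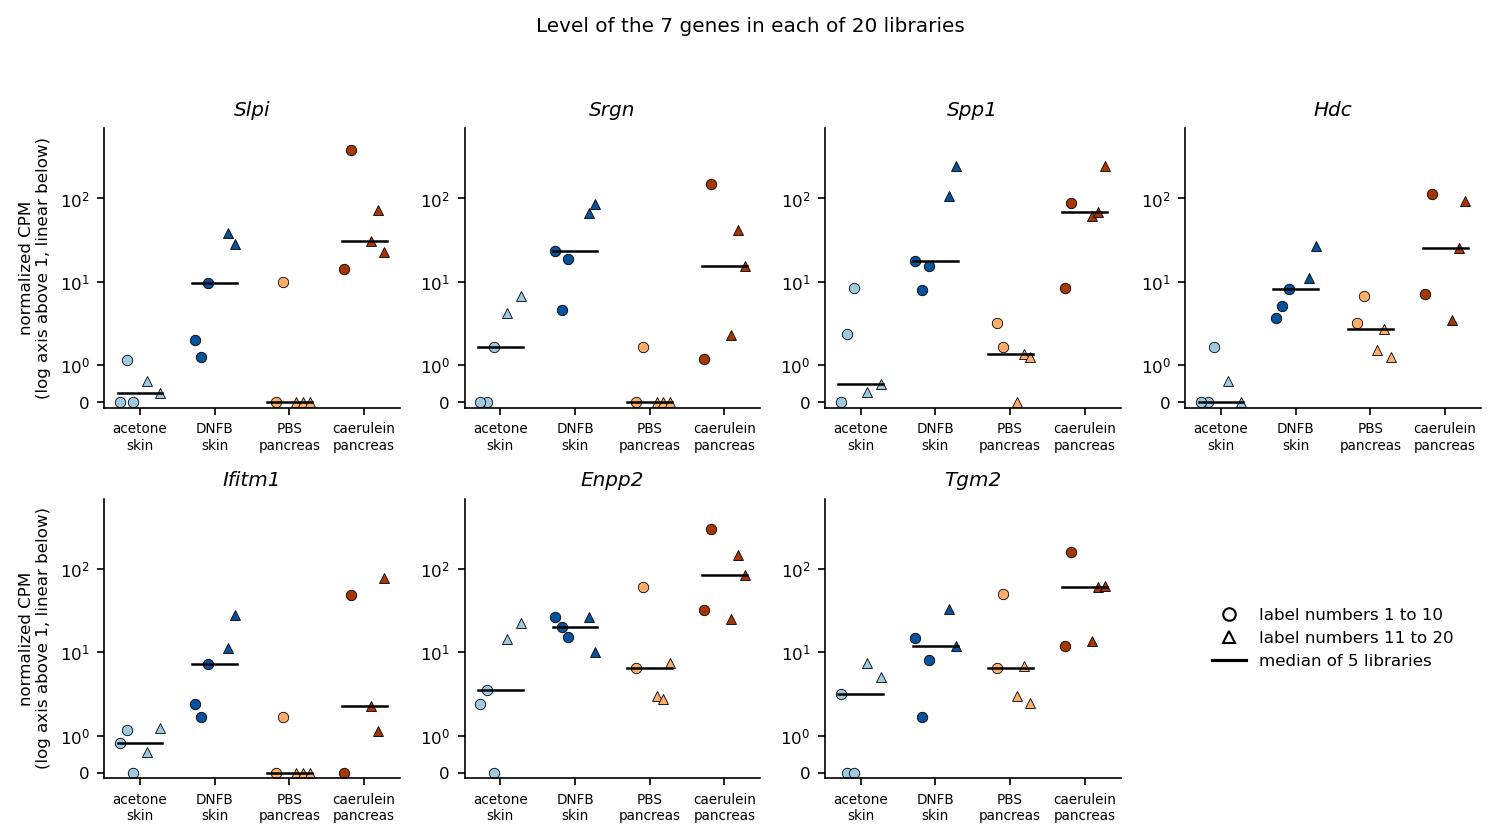
Normalized CPM of each gene in each library (vertical axis, logarithmic above 1 and linear below) for the 4 groups (horizontal axis), with circles for label numbers 1 to 10, triangles for 11 to 20 and a bar at the median of 5 libraries. The circle at 10.04 in PBS-treated pancreas for Slpi is library 8, and the acetone triangles of Enpp2 at 22.3 and 14.6 lie among the DNFB points.

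Taking the inflamed and control ranges side by side, 3 of the 7 genes (Slpi, Hdc and Ifitm1) did not overlap in skin, where 1.6% of 20116 genes with at least 20 counts were higher without overlap. In pancreas 2 of the 7 (Slpi and Spp1) did not overlap, against 2.76% of 14504 genes. The genes were chosen on these contrasts, and nothing is read from these counts. Only 4 of the 7 passed the filter on low counts in skin (Srgn, Spp1, Enpp2 and Tgm2) and 3 in pancreas (Slpi, Enpp2 and Tgm2). Genes with a low control level pass such a filter only through the inflamed libraries. Over all genes past the filter, edgeR's quasi-likelihood test called 0.0413% in skin (3 of 7265) and 12.2% in pancreas (115 of 946) at an adjusted p of 0.05.

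**Figure D2:**
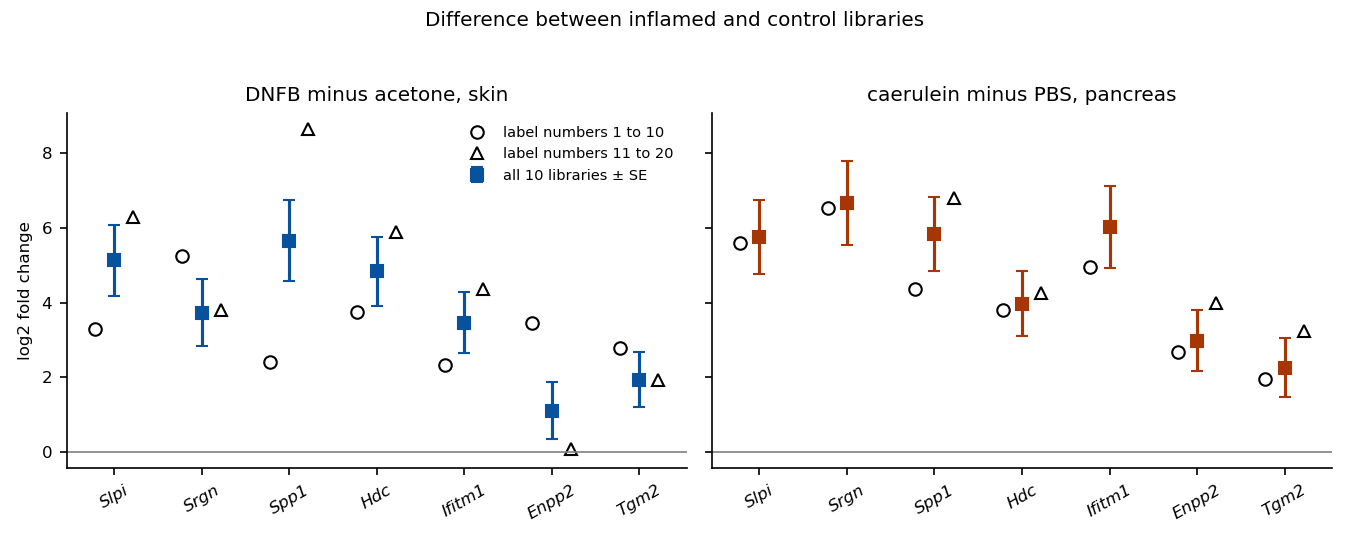
Log2 fold change between inflamed and control libraries (vertical axis) for the 7 genes (horizontal axis) in skin and pancreas, as squares with SE over all 10 libraries, circles within label numbers 1 to 10 and triangles within 11 to 20. Triangles are absent for Slpi, Srgn and Ifitm1 in pancreas, where no control library numbered 11 to 20 held a count, and the triangle of Enpp2 in skin lies at 0.08.

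Within the number ranges there were fewer libraries on each side, where ranges stay apart more easily. The share over all genes was not taken for these smaller sets, and the genes were chosen on these contrasts. Nothing is read from the overlaps given here. Among label numbers 11 to 20 in pancreas (3 PBS and 3 caerulein libraries) none of the 7 genes overlapped, and among 1 to 10 (2 and 2) the ranges of Srgn, Ifitm1, Enpp2 and Tgm2 did. In skin, Enpp2 was the gene that overlapped among 11 to 20 (2 acetone and 2 DNFB), and Spp1 and Tgm2 overlapped among 1 to 10 (3 and 3). The labels do not say whether the number ranges were prepared apart.

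The control counts were also set beside those of olfactory receptor genes, as a reference of genes with few counts in these libraries. Per kilobase of exon, Slpi held 3.39, Hdc 0.470, Spp1 6.07, Ifitm1 8.23 and Tgm2 10.9 counts in the 5 acetone libraries together, against a median of 4.24 and a 95th percentile of 12.1 over 1105 such genes, a reference chosen after the values were seen. Enpp2 with 25.3 and Srgn with 19.6 lay above that percentile. In PBS libraries all 7, from Srgn at 0.455 to Tgm2 at 9.33, lay below the 95th percentile of 10.1. In DNFB libraries the olfactory median was 9.39 and its 95th percentile 25.6, and Hdc at 17.8 counts per kilobase was the one member below that percentile. In caerulein libraries all 7 members, from Hdc at 83.7 to Slpi at 861, lay above every one of these genes, whose 95th percentile was 16.97. The 7 genes were chosen for high inflamed counts. Their place in the DNFB and caerulein libraries follows from that choice, and nothing is read from it.

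Compared per kilobase of exon, the mean level of the 7 genes had a different order in each inflamed tissue. In DNFB-treated skin Spp1 stood first at 47.3 normalized CPM per kb, followed by Srgn at 18.1, Slpi at 13.6 and Ifitm1 at 9.31, with Enpp2 at 3.43, Tgm2 at 3.03 and Hdc at 1.70. In caerulein-treated pancreas Slpi stood first at 87.8, followed by Spp1 at 57.3, Ifitm1 at 23.7, Enpp2 at 20.5, Srgn at 19.1, Tgm2 at 13.4 and Hdc at 7.64. The place of Slpi rested on caerulein library 10: without it the mean of Slpi was 29.8 and that of Spp1 58.3 per kb, and by the median of the 5 libraries Spp1, at 42.3, also stood above Slpi, at 26.3. Over the 4 groups, each gene had its highest mean in caerulein-treated pancreas and its second in DNFB-treated skin. For Tgm2 the DNFB mean, 13.97, was level with the PBS mean, 13.8. By the median, DNFB-treated skin stood above caerulein-treated pancreas for Srgn (23.4 against 15.5) and Ifitm1 (7.33 against 2.30). That inflamed means lay above control means follows from the choice. The ranges of DNFB and caerulein libraries overlapped for all 7 genes. Among all neighbouring groups in the order of means, only DNFB and acetone for Ifitm1 were apart.

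The 2 inflamed tissues were tested against each other in a fit of all 20 libraries, in which 533 of 8336 genes, 6.39%, passed an adjusted p of 0.05 and all 7 genes passed the filter. The contrast also holds the difference between epidermis and pancreas themselves, which cannot be told apart from that between the treatments. The 7 genes were chosen for their levels on both sides of this contrast. Slpi, Srgn, Spp1, Hdc and Ifitm1, with few control counts, passed the filter mainly through the inflamed libraries. The p-values of the 7 genes here therefore describe them and are no independent test. Enpp2 passed, at 19.8 ± 7.16 normalized CPM (SD, n = 5) in DNFB-treated skin and 119 ± 115 in caerulein-treated pancreas. Its log2 difference, skin minus pancreas, was -2.33 ± 0.69 (SE; edgeR adjusted p = 0.0367). Without caerulein library 10 the difference was -1.83 (adjusted p = 0.18), and over all alternatives the adjusted p of Enpp2 ranged from 0.0176 to 0.18.

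Slpi, Tgm2 and Hdc had lower means in DNFB-treated skin as well but did not pass. Slpi was at 15.995 ± 16.6 against 104 ± 155 normalized CPM, with a log2 difference of -2.29 ± 0.86 (edgeR adjusted p = 0.132, and 0.0434 to 0.681 over the alternatives). Tgm2 was at 13.97 ± 11.9 against 61.8 ± 60.6, with -1.90 ± 0.70 (adjusted p = 0.119, and 0.0776 to 0.454). Hdc was at 10.9 ± 9.19 against 48.8 ± 51.4, with -1.65 ± 0.68 (adjusted p = 0.191, and 0.0294 without DNFB library 14 to 0.523).

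Ifitm1, Srgn and Spp1 showed no difference that the spread between libraries could resolve. Ifitm1 was at 10.2 ± 10.8 against 25.9 ± 35.4 (log2 difference -0.83 ± 0.81, edgeR adjusted p = 0.742). Srgn was at 39.8 ± 34.5 against 42.0 ± 62.2, with a fitted log2 difference of 0.41 ± 0.77 (adjusted p = 0.896), and of 1.60 without caerulein library 10 (adjusted p = 0.386). Spp1 was at 78.0 ± 100.2 against 94.4 ± 88.8, with a fitted log2 difference of 0.16 ± 0.86 (adjusted p = 0.968). For both Srgn and Spp1 the sign of the fitted difference is opposite to that of the means. Without the filter on low counts the fitted differences were -0.09 for Srgn and -0.28 for Spp1, with the sign of the means. An SE near 0.8 on the log2 scale leaves room for large differences in either direction.

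**Figure D3:**
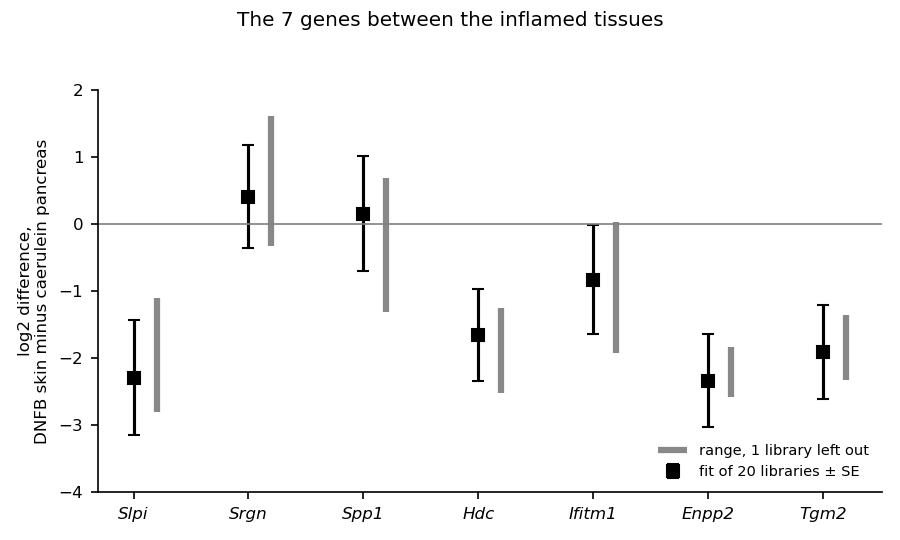
Log2 difference between DNFB-treated skin and caerulein-treated pancreas (vertical axis) for the 7 genes, as squares with SE and, in grey, the range when 1 library is left out. Enpp2 lies at -2.33, and the grey ranges of Srgn, Spp1 and Ifitm1 include 0.

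The genes that work with these 7 were taken as 7 lists of receptors, substrates, related enzymes and family members, 103 distinct genes of which 28 passed the filter in skin and 7 in pancreas. In skin edgeR called none of the 28 at an adjusted p of 0.05, with 7 at an unadjusted p under 0.05, and DESeq2 called 1 of 83, where it called 0.337% of all 23116 genes it tested. Their median log2 fold change was -0.25, beside 0.02 over all genes tested, and 0.49 beside 0.16 without acetone libraries 11 and 12. In pancreas edgeR called 2 of 7, both higher, where it called 12.2% of all genes tested, and nothing is read from 2 calls. The median of these 7 partners was 1.74 beside 0.00 over all genes tested. DESeq2, which tested 37 of them, called 8 higher and 1 lower, where it called 8.53% of 8618 genes and the median of all genes was 0.60.

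The 2 called genes were the closest relatives of Ifitm1. Ifitm3 was at 26.4 ± 34.2 normalized CPM in PBS-treated and 212 ± 188 in caerulein-treated pancreas, and rose by a log2 fold change of 2.36 ± 0.72 (edgeR adjusted p = 0.0384). Ifitm2 rose from 16.1 ± 22.4 to 121 ± 131, by 2.31 ± 0.74 (adjusted p = 0.0446). Neither call held without PBS library 7 or without caerulein library 10, 19 or 20. On the same log2 scale Ifitm2 differed by 0.07 ± 0.73 and Ifitm3 by -0.28 ± 0.62 between DNFB and acetone libraries, while Ifitm1 was at 3.46. Without acetone libraries 11 and 12 these were 1.78 for Ifitm2 and 1.04 for Ifitm3, and neither passed the test. How the counting split reads shared between these similar genes was not tested. Ly6e, another interferon-induced gene and the third of this list by counts, had -0.88 ± 0.65 in skin and 0.11 ± 0.60 in pancreas. Of the 17 genes of the list, 10 were tested in skin, none was called and their median was -0.34, or 0.49 over 9 tested genes without acetone libraries 11 and 12.

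Among the antiproteases and neutrophil proteases listed with Slpi, 4 of 15 were tested in skin, none passed edgeR's threshold and the median log2 fold change was 0.83, or 1.84 without acetone libraries 11 and 12. In pancreas none of the 15 passed the filter. Cstb, which encodes the cysteine protease inhibitor cystatin B, had 213 counts with caerulein and none with PBS (DESeq2 adjusted p = 0.000851). Wfdc17, a gene with the same protein fold as Slpi, had 5 counts in PBS and 870 in caerulein libraries (DESeq2 adjusted p = 0.000334). Between DNFB and acetone libraries the log2 fold change was 0.67 ± 0.68 for Cstb and 0.99 ± 0.83 for Wfdc17, and 0.88 and 2.80 without those 2 libraries. Serpina3n, a serine protease inhibitor, had 7 counts in PBS and 200 in caerulein libraries, and 1 caerulein library was at 92.6 normalized CPM where the group mean was 19.2.

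Receptors and cleaving proteases of osteopontin were listed with Spp1. Cd44, a receptor, was at 31.0 ± 24.0 normalized CPM in acetone and 31.9 ± 21.3 in DNFB libraries (log2 fold change 0.23 ± 0.50). In pancreas Cd44 was at 5.33 ± 4.32 in PBS and 30.04 ± 30.6 in caerulein libraries (DESeq2 adjusted p = 0.0481), too low for the filter of edgeR. Itgb1, the integrin beta 1 subunit, was at -1.20 ± 0.52 log2 units in skin (edgeR adjusted p = 0.791) and 2.78 ± 0.81 in pancreas, where it was not tested by edgeR. Itga4, the alpha 4 subunit, had 0.03 ± 0.58 and 0.62 ± 0.73. The list held 17 genes, of which 4 were tested in skin with a median of 0.13 and none was called. Without acetone libraries 11 and 12 that median was -0.23.

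Granule cargo and enzymes of glycosaminoglycan synthesis were listed with Srgn, and 1 of the 16 was tested in skin. That gene, Ndst1, a heparan sulfate sulfotransferase, differed by 0.14 ± 0.47 on the log2 scale in skin (0.57 without acetone libraries 11 and 12) and by 0.07 ± 0.73 in pancreas. The chondroitin sulfotransferases Chst12 and Chst11 had -0.23 ± 0.69 and -0.29 ± 0.71 in skin. None of the 9 genes of histamine storage, breakdown and reception listed with Hdc passed the filter in either tissue. Aoc1, which encodes the histamine-degrading diamine oxidase, had 7 counts in PBS and 170 in caerulein libraries. These were uneven: the highest caerulein library was at 64.6 normalized CPM and the lowest at 0, where the group mean was 13.6. Slc18a2, the vesicular transporter that stores histamine, had 9 and 24, with 41 in acetone and 32 in DNFB libraries. Maob, which oxidizes the methylated breakdown product, had 45 counts in acetone and 16 in DNFB libraries.

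Receptors and degrading enzymes of lysophosphatidic acid were listed with Enpp2. Of 14 genes, 2 were tested in skin with a median log2 fold change of -0.30 (0.47 without acetone libraries 11 and 12), and none in pancreas. The phosphatases Plpp2 and Plpp3 had log2 fold changes of -0.23 ± 0.74 and -2.19 ± 0.73 in skin, the latter untested by edgeR (DESeq2 adjusted p = 0.547). Plpp1 had no count in PBS and 97 in caerulein libraries (DESeq2 adjusted p = 0.0321). It did not pass the filter of edgeR, and caerulein libraries ranged from 0 to 32.4 normalized CPM.

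Transglutaminases, substrates and regulators listed with Tgm2 stood on opposite sides of 0 in the 2 tissues, with a median log2 fold change of -1.42 over 8 tested genes in skin and 1.41 over 4 in pancreas, and edgeR called none of them. Without acetone libraries 11 and 12 the median in skin was -0.37 over 9 tested genes. Fn1, which encodes the substrate fibronectin, was at -1.35 ± 0.72 log2 units in skin and 2.63 ± 0.95 in pancreas (edgeR adjusted p = 0.0765, DESeq2 adjusted p = 0.039). Col3a1 had -1.88 ± 0.63 (adjusted p = 0.606) and 1.74 ± 0.90 (adjusted p = 0.204). Col1a1 had -1.92 ± 0.66 (adjusted p = 0.618) and 0.08 ± 0.91. Beside the skin values stand fibroblast markers, which include both collagens, at summed levels of 622 and 684 in acetone libraries 11 and 12 and 56.2 to 177 in DNFB libraries. Without these 2 libraries Fn1 was at 1.22, Col3a1 at -0.85 and Col1a1 at -1.42 in skin, so the direction of Fn1 there rested on them. The part of fibroblasts in these values was not tested.

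**Figure D4:**
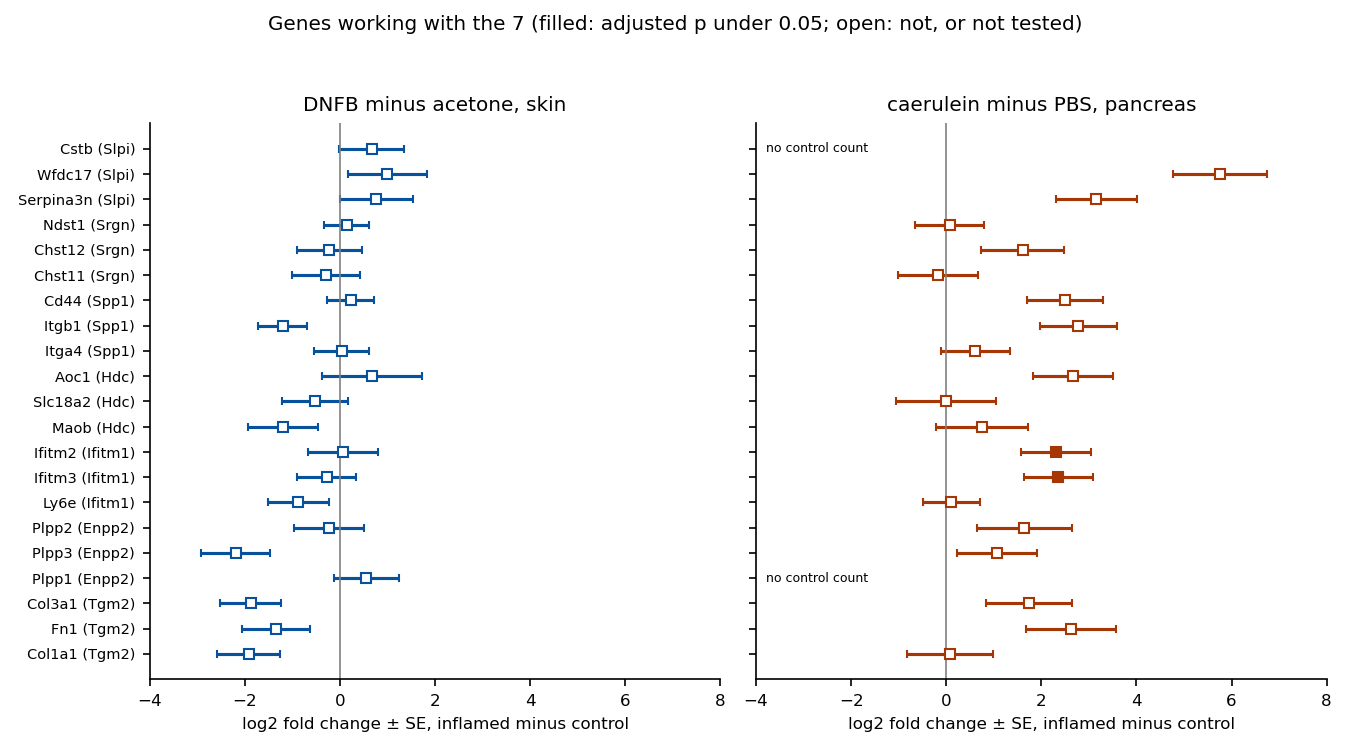
Log2 fold change with SE, inflamed minus control (horizontal axis), of the partner genes named in the text, each with the member it was listed with (vertical axis), in skin and pancreas. Filled squares mark Ifitm2 and Ifitm3 in pancreas, open squares did not pass or were not tested, and Cstb and Plpp1 are without a value in pancreas because PBS libraries held no count of them.

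In bulk tissue more cells of a type and more RNA per cell cannot be told apart, so marker levels are given beside the 7 genes. In skin the neutrophil list of 11 genes had summed levels of 6.51 to 14.03 in acetone libraries. In DNFB libraries 4, 5, 6, 13 and 14 it had 23.2, 77.4, 42.0, 233 and 392. S100a9 and S100a8, which inflamed keratinocytes also make, gave 740 and 717 of its 1689 counts in DNFB libraries. All 11 genes had a count there, 2 were at 3 counts or fewer in all 5 libraries together, and S100a8 was called (log2 fold change 6.20 ± 1.06, edgeR adjusted p = 0.046). That call held in 11 of 18 alternatives, and was lost when acetone library 1, 2, 11 or 12 or DNFB library 5 or 13 was left out, and when acetone libraries 11 and 12 were left out together (adjusted p up to 0.206). DNFB libraries 13 and 14, the highest for this list, gave the highest values of Slpi, Srgn, Spp1, Hdc and Ifitm1, while Enpp2 was lowest of the group in library 14, at 10.2. DNFB library 14 also had the lowest keratinocyte markers of its group, at 140 against 679 to 2269. Its acinar markers were the highest in skin, at 29.4 against 11.7 at most in the others. The macrophage and monocyte list had 35.9 to 199 in DNFB libraries, where Cd14 led, and 18.7 to 1102 in acetone libraries. The part of these cells in the 7 genes was not tested.

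In pancreas the macrophage and monocyte list, led by Lyz2, had summed levels of 34.6 to 340 in PBS libraries, the highest in library 8. In caerulein libraries 9, 10, 18, 19 and 20 it had 104, 4348, 276, 2201 and 562. Library 10 was the highest for Slpi, Srgn, Hdc, Enpp2 and Tgm2, and library 20 for Spp1 and Ifitm1. PBS library 8 was the highest of its group for 6 of the 7 genes, and for fibroblast markers too, at 927 against 24.4 to 62.9, where caerulein libraries had 128 to 2693. The neutrophil list had 4.51 to 15.04 in PBS and 13.8 to 254 in caerulein libraries. Acinar markers moved the other way, with 9 of 10 tested genes called lower by edgeR, where it called 38 of all 946 genes lower. Without PBS library 7 edgeR called only 3 genes of any kind lower. The summed acinar level was 2071 to 13880 in caerulein libraries, and 98237 and 84595 in PBS libraries 7 and 8. PBS libraries 15, 16 and 17 had 10586, 5849 and 15072, so the ranges overlapped. T cell markers (1.63 to 19.1 against 10.8 to 195), B cell markers (6.504 to 24.04 against 1.2 to 178) and islet markers (33.7 to 167 against 66.8 to 362) overlapped between PBS and caerulein libraries. Endothelial markers were at 11.2 to 21.9 and 16.1 to 33.6, duct markers without Spp1 at 10.5 to 78.1 and 28.8 to 188, and melanocyte markers at 15.1 at most in either.

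In skin, T cell markers (9.61 to 22.004 in acetone and 10.01 to 25.3 in DNFB libraries), B cell markers (2.75 to 15.2 and 2.71 to 8.44) and endothelial markers (14.8 to 46.8 and 12.7 to 26.4) overlapped between the groups. Melanocyte markers were at 12.9 to 369 and 63.5 to 403, and Langerhans cell markers at 8.19 to 783 and 48.1 to 106. Duct and islet markers were at 20.02 at most and 3.39 at most in skin. The pan-leukocyte list was at 11.7 to 145 in acetone and 24.1 to 147 in DNFB libraries. In pancreas the mast cell list was at 1.63 to 23.2 in PBS and 9.60 to 34.2 in caerulein libraries, the pan-leukocyte list at 17.9 to 171 and 68.4 to 889, and Langerhans cell markers, which include class II genes of other antigen-presenting cells, at 10.5 to 72.0 and 54.0 to 989.

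**Figure D5:**
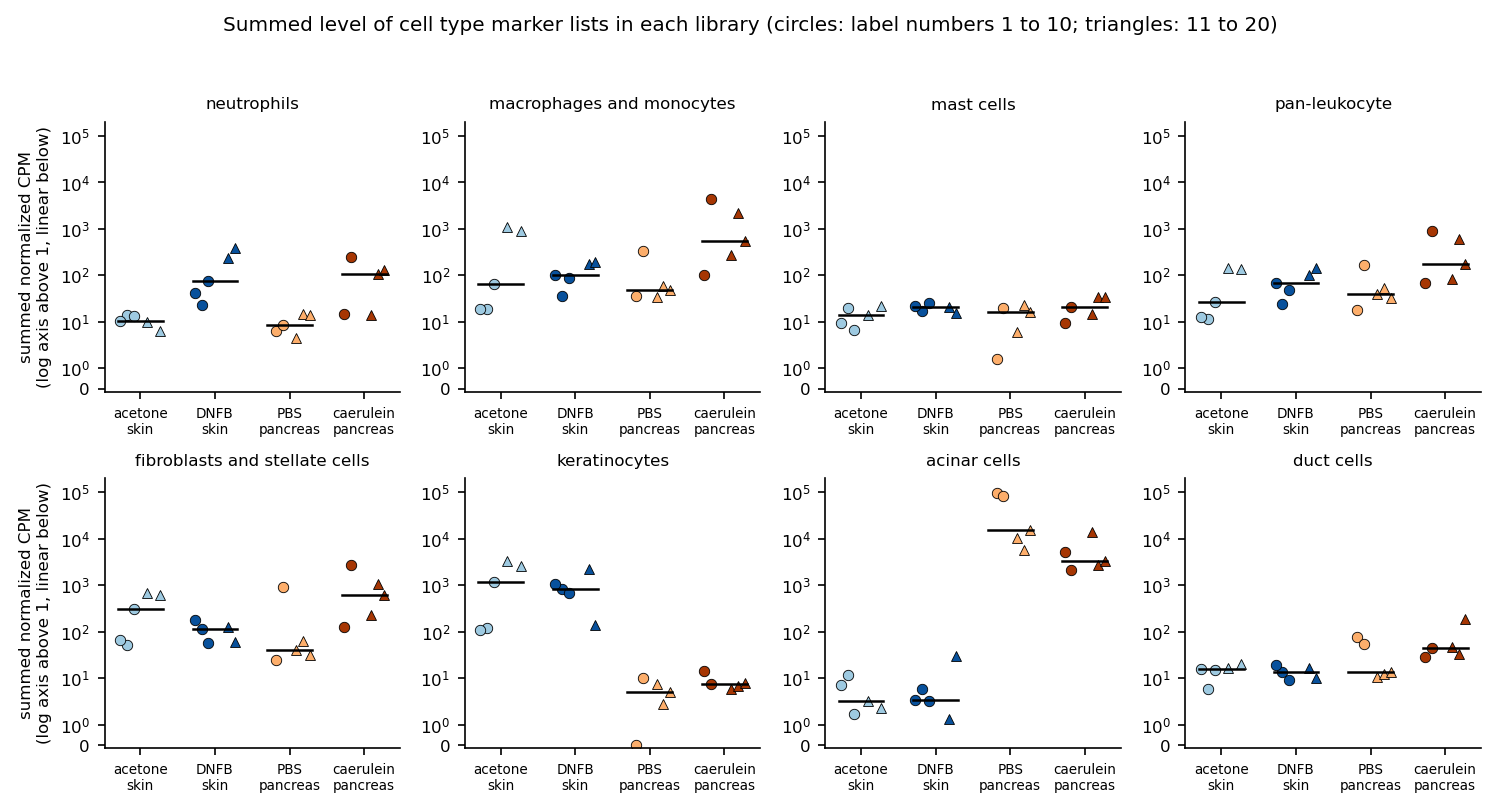
Summed normalized CPM of 8 marker lists (vertical axis, logarithmic above 1 and linear below) in each library of the 4 groups (horizontal axis), with circles for label numbers 1 to 10, triangles for 11 to 20 and a bar at the median. Neutrophil markers reach 392 in DNFB libraries and 14.03 at most in acetone libraries, while the macrophage list overlaps in skin and reaches 4348 in caerulein-treated pancreas.

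The genes whose pattern over the 20 libraries was most like each member were ranked by the root mean square difference of log2 normalized CPM, each gene centred on its own mean, among 10897 genes with at least 100 counts, the satellite-like genes and the 7 genes themselves left out. The values share depth and library makeup and are a description. Nearest to Srgn were S100a8 (0.92), Hilpda (0.92) and Cd14 (1.05), where the spread of Srgn around its own mean was 2.63 on the same scale. Nearest to Spp1 were S100a8 (1.61), Isg20 (1.79) and Hp (1.83), and to Ifitm1 were Adam8 (1.16), Lcn2 (1.33) and Plaur (1.37). Slpi was nearest to Prg4 (1.504), Clec4d (1.58) and the neutrophil-attracting chemokine Cxcl1 (1.61). Hdc was nearest to the hemoglobin gene Hbb-bt (1.32), the immunoglobulin segment Igkv1-110 (1.33) and Hbb-bs (1.35), genes of blood cells and plasma cells.

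Enpp2 was nearest to Adgre5 (1.02), Lyve1 (1.03) and Por (1.06), and Tgm2 to Vav1 (1.09), Lgals1 (1.11) and Cotl1 (1.13). Set beside these, the distances between the 7 genes themselves were in part smaller. All 7 were chosen for high levels in the same inflamed groups, so small distances between them follow from the choice. Nothing is read from them. Spp1 was nearer to Hdc (1.55) than to any of the other genes, and so was Tgm2 to Enpp2 (1.04). Enpp2 was nearer to Tgm2 (1.04) than to Por, and Slpi nearer to Hdc (1.59) than to Cxcl1. The nearest of the 7 to Srgn was Ifitm1 (1.60), to Hdc it was Tgm2 (1.39) and to Ifitm1 it was Hdc (1.52). The spread of the 7 genes around their own means ranged from 2.06 for Tgm2 to 2.81 for Slpi.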

How the data were processed

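RNA was measured by Smart-Seq2 in 20 libraries, 5 of each group, placed by their titles. The authors mapped the reads to mm10 with STAR 2.5.3 and deposited expected counts per gene from RSEM 1.3.1, which are estimates and not normalized, and 94.7% of them are whole. The gene annotation they used is not given in the sources used here. Coordinates and symbols come from GENCODE M21, and 0 columns were left unused. Counts were rounded to whole numbers.

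Genes were tested with edgeR 4.0.16 in R 4.3.3 (TMM, filterByExpr with a minimum count of 10, quasi-likelihood test, two-sided, Benjamini-Hochberg over all genes tested, threshold 0.05), per tissue with 5 against 5 libraries, and in 1 fit of the 20 libraries for DNFB-treated skin against caerulein-treated pancreas. Fold changes of the 7 genes within each tissue came from the same fits without the filter. Their differences between the inflamed tissues came from the fit with the filter. DESeq2 1.42.0 was an alternative, as were other filters and scalings, a term for label numbers 1 to 10 against 11 to 20, and leaving out single libraries. Methods were tested on simulated data. Of 40 pairs of libraries within groups, 0 were identical.

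The 7 genes, the partner lists and the marker lists were chosen with earlier results of these data known. Named besides the 7 are partner genes past the threshold or among the 3 with the most counts of their list, the leading genes of marker lists, and the 3 genes most like each member. Cpa3, Cma1, Tpsb2, Krt19, S100a8, the overlapping genes and the olfactory receptors were chosen after their values were seen. A gene counted as satellite-like when 10% or more of its 15-letter words recur in Gm10800, Gm10801 or Gm21738.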

Additional observations from a re-analysis of the deposited data

Results flagged for a closer look

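Of 28 groups of 5 values (7 genes in 4 groups), 3 had a library whose distance to the nearest of the others was more than 0.71 of the whole range on the log2 scale, where chance gives about 1 in 20 groups. All 3 are PBS library 8, the PBS library with the highest macrophage and fibroblast marker levels. Slpi was at 10.04 normalized CPM there (6 counts), Srgn at 1.67 (1 count) and Ifitm1 at 1.67 (1 count). The other 4 PBS libraries were at 0 for these 3 genes, so a single read is enough for such a distance.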

How the results depend on the processing

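No paired analysis was possible because the label numbers do not repeat between groups. The number of genes called in skin, 3, was 78 in DESeq2, 108 with no filter, 9 with a minimum count of 5, 6 without the satellite-like genes, 7 when scaled by counts outside them, 12 with the label number term, and 1 without acetone libraries 11 and 12, an alternative chosen after seeing the data. Leaving out 1 library gave 0 (without acetone library 2 or 12, or DNFB library 5 or 13) to 34 (without acetone library 3). In pancreas 115 became 735 in DESeq2, 1297 with no filter and 210 when scaled by counts outside the satellite-like genes, and 14 to 280 with 1 library left out (14 without PBS library 7, 280 without PBS library 8). With that scaling the median of all genes in pancreas was at a log2 fold change of 0.62 (0.19 with the size factors of DESeq2) and the share of higher calls went from 67.0% to 90.95%. In skin it moved the median to 0.14 and the share from 66.7% (2 of 3 calls) to 85.7% (6 of 7), where DESeq2 gave 48.7% (38 of 78) and no filter 37.04% (40 of 108). Under that scaling the 7 genes, which were chosen for rising in both tissues, were at 1.54 or more in skin and 2.18 or more in pancreas. Between DNFB-treated skin and caerulein-treated pancreas 533 became 913 in DESeq2, 984 with no filter and 339 without the satellite-like genes, and 354 to 676 with 1 library left out (354 without caerulein library 10). Of the partner genes, DESeq2 called 1 in skin and leaving out 1 library gave 0 to 0. In pancreas 2 became 9 in DESeq2, 14 with no filter, 1 with a minimum count of 5 and 0 without the satellite-like genes, and 0 to 7 with 1 library left out (7 without PBS library 8). The cause of these shifts was not tested.

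No log2 fold change of the 7 genes in skin or pancreas changed sign under any alternative. The genes were chosen for rising in these contrasts and the alternatives reuse the same libraries, so nothing is read from this. Of 245 values, 12 moved by more than the spread between libraries, 10 of them when libraries 11 and 12 of acetone were left out or within 1 range of label numbers. In the comparison of the inflamed tissues, Enpp2 stayed past the threshold in 15 of 28 alternatives. The Srgn difference was -0.0493 in DESeq2, -0.0895 with no filter and -0.33 without DNFB library 14. That of Spp1 was -0.27 in DESeq2, -0.28 with no filter, -0.0698 with a minimum count of 5, -0.20 with the size factors of DESeq2, -0.0147 without the satellite-like genes and -0.0057 without acetone libraries 11 and 12. With 1 library left out it ranged from -1.31 to 0.69, that of Srgn from -0.33 to 1.60, and that of Ifitm1 from -1.92 to 0.0289, the latter without caerulein library 20. Depth limits all values of 3 counts or fewer in a library.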
